A study of Mus musculus with 12 samples.

Results

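Major histocompatibility complex (MHC) class I molecules show short pieces of a cell's own proteins to CD8 T cells. The 10 genes described here cover that route from the cleavage of proteins to the loaded molecule, and were chosen by name as the genes of class I presentation and the immunoproteasome. They are Nlrc5, B2m, H2-K1, H2-D1, Tapbp, Tap1, Tap2, Psmb8, Psmb9 and Psmb10. All 10 were found among the 45808 genes of the table, and all 10 were among the 15025 genes tested, those that averaged at least 10 normalized counts over the libraries. A normalized count is a gene's read count divided by the size factor of its library.

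The libraries were made from polyadenylated RNA of ileum, labelled as its distal part, from BALB/c mice, an inbred laboratory strain. A group of 6 libraries came from controls given phosphate-buffered saline (PBS) and a group of 6 from mice treated with Porphyromonas gingivalis, a bacterium of the mouth associated with periodontitis. Both groups share strain and tissue, and no mutation or transgene is named. The sources used here do not give age, sex, route, dose or duration, or whether every library is a mouse of its own. Libraries keep the numbers 1 to 6 of their labels within each group.

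In the class I route, the proteasome cuts cytosolic proteins into peptides, and the transporter TAP carries these into the endoplasmic reticulum. There tapasin holds a heavy chain and its partner β2-microglobulin beside TAP until a peptide is bound. In the immunoproteasome, the catalytic subunits encoded by Psmb8, Psmb9 and Psmb10 replace those encoded by Psmb5, Psmb6 and Psmb7. Interferon-γ induces the genes of this route, and NLRC5 is a transactivator of class I promoters. In the small intestine the route operates in epithelial cells and in the many lymphocytes between and beneath them.

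The promoters of the 2 heavy chain genes and of B2m carry elements through which these signals are known to act, and their letters are shown here because the levels of the 3 genes are compared below. Sequences are RefSeq's for build GRCm38.p6. RefSeq windows from 250 bases before to 50 after a transcription start were found for 8 of the 10 genes, not for Nlrc5 or Tap2. The first stretches pair a κB-type element with an interferon-response-type element, both in capitals.
H2-K1, chr17:34000429-34000458, minus strand: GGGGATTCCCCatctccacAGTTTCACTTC
H2-D1, chr17:35262923-35262952, plus strand: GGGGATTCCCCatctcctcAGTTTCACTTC
B2m, chr2:122147548-122147570, plus strand: GAAACTGAAAatgGGAAAGTCCC
In both heavy chain genes the κB-type letters came first and the interferon-type letters, which read GAANNGAAACT on the other strand, followed. In B2m the order was the reverse.

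The second stretches run from the X2 letters TGACG to the Y letters ATTGG, in capitals, with 20 bases between them. Proteins that bind such X and Y boxes form the platform on which NLRC5 acts.
H2-K1, chr17:34000359-34000388, minus strand: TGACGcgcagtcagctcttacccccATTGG
H2-D1, chr17:35262993-35263022, plus strand: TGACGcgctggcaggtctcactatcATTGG
B2m, chr2:122147609-122147638, plus strand: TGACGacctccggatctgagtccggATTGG
The X2 letters began 41 bases before the RefSeq start in H2-K1, 101 in H2-D1 and 78 in B2m. Upstream of the RefSeq start of H2-D1 the GENCODE annotation has a longer isoform, so there both H2-D1 stretches lie inside the gene.

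The motifs were chosen after these sequences had been seen and were searched on both strands of 32851 windows. TGACG and ATTGG at this spacing occurred in 31 windows (0.0944%), those of H2-K1, H2-D1, B2m and the class I gene H2-M3 among them. GGGGATTCCCC occurred in 10 windows (0.0304%), GGAAAGTCCC in 51 (0.155%), GAANNGAAACT in 173 (0.527%) and GAAANNGAAA, the form in B2m, in 1131 (3.44%). TGACG alone stood in 20.8% and ATTGG alone in 37.4% of windows.

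A compact block holds 4 of the 10 genes. Psmb9, Tap1, Psmb8 and Tap2 lie in that order at chr17:34181987-34216321, a stretch of 34335 bases in the MHC (GENCODE M21, build GRCm38). Psmb9 and Tap1 point away from each other, with 225 bases between their RefSeq starts, so that their promoter windows share 275 of 300 bases. Tapbp (chr17:33915899-33929292), H2-K1 (chr17:33996017-34000347) and H2-D1 (chr17:35262730-35267499) are on the same chromosome. Nlrc5 (chr8:94434356-94527272) and Psmb10 (chr8:105935735-105938444) are on chromosome 8, and B2m (chr2:122147686-122153083) is on chromosome 2.

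Some counts are uncertain by position or sequence. The annotated Psmb9 and Tap1 overlap by 212 bases on opposite strands, and Tapbp overlaps the zinc finger gene Zbtb22 (193 to 276 normalized counts) by 3422 bases on its own strand. B2m lies within Patl2, which had at most 1.74 normalized counts. H2-K1 and H2-D1 resemble each other and other class I genes. BALB/c mice also carry another MHC haplotype than the reference strain, so their reads may be lost or shared between genes, and the part of this in the values was not tested.

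Depth ran from 6553306 to 10378841 reads per library. The labelled tissue was not borne out by its defining markers in 3 libraries: PBS library 6 had 4.32 normalized counts of Fabp6, the bile acid binding protein of the distal ileum, P. gingivalis library 1 had 2.52 and P. gingivalis library 5 had 16.0, where the other 9 had 11246 or more. Fabp1, higher in the proximal small intestine, was at 16938 to 26745 in these 3 and at 18.3 to 1821 in the 9. The mitochondrial ribosomal RNA mt-Rnr2 took 6.95%, 9.14% and 2.11% of the reads of these 3 in that order, and 0.759% to 4.56% in the 9. The 18S ribosomal RNA gene Rn18s-rs5 took 4.6% in P. gingivalis library 4, 0.629% in P. gingivalis library 2 and at most 0.00561% in the others. The summed level of 10 adipocyte markers was 2749 to 12756 in the PBS libraries and 558 to 4575 in the treated ones. The treatment differences of the 10 genes are therefore given with and without the 3 libraries low in Fabp6, and bulk tissue cannot tell fewer cells of a type from less RNA per cell.

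No gene of the route passed limma's test between the groups. Of the 10 genes, 0 reached an adjusted p of 0.05, where 0 of the 15025 genes tested did (0%), and 0 had an unadjusted p under 0.05, against 3.73% of all genes. In 0 of the 10 were the 2 groups without overlap, against 0.166% of all genes. The mean log2 level, to which higher and lower refer here and below, was higher after P. gingivalis for 7 of the 10, with a median log2 difference of 0.13, where 48.9% of all genes were higher and the median was -0.004. Without the 3 libraries low in Fabp6, 5 of the 10 were higher and the median was 0.02; again 0 passed (0.00667% of all genes) and 0 had an unadjusted p under 0.05 (2.97%). edgeR's test on the recovered reads also gave 0 of 10 at an unadjusted p under 0.05, against 3.64% of its genes. The highest levels of most of the 10 genes lay in those 3 libraries, which come from both groups.

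**Figure D1:**
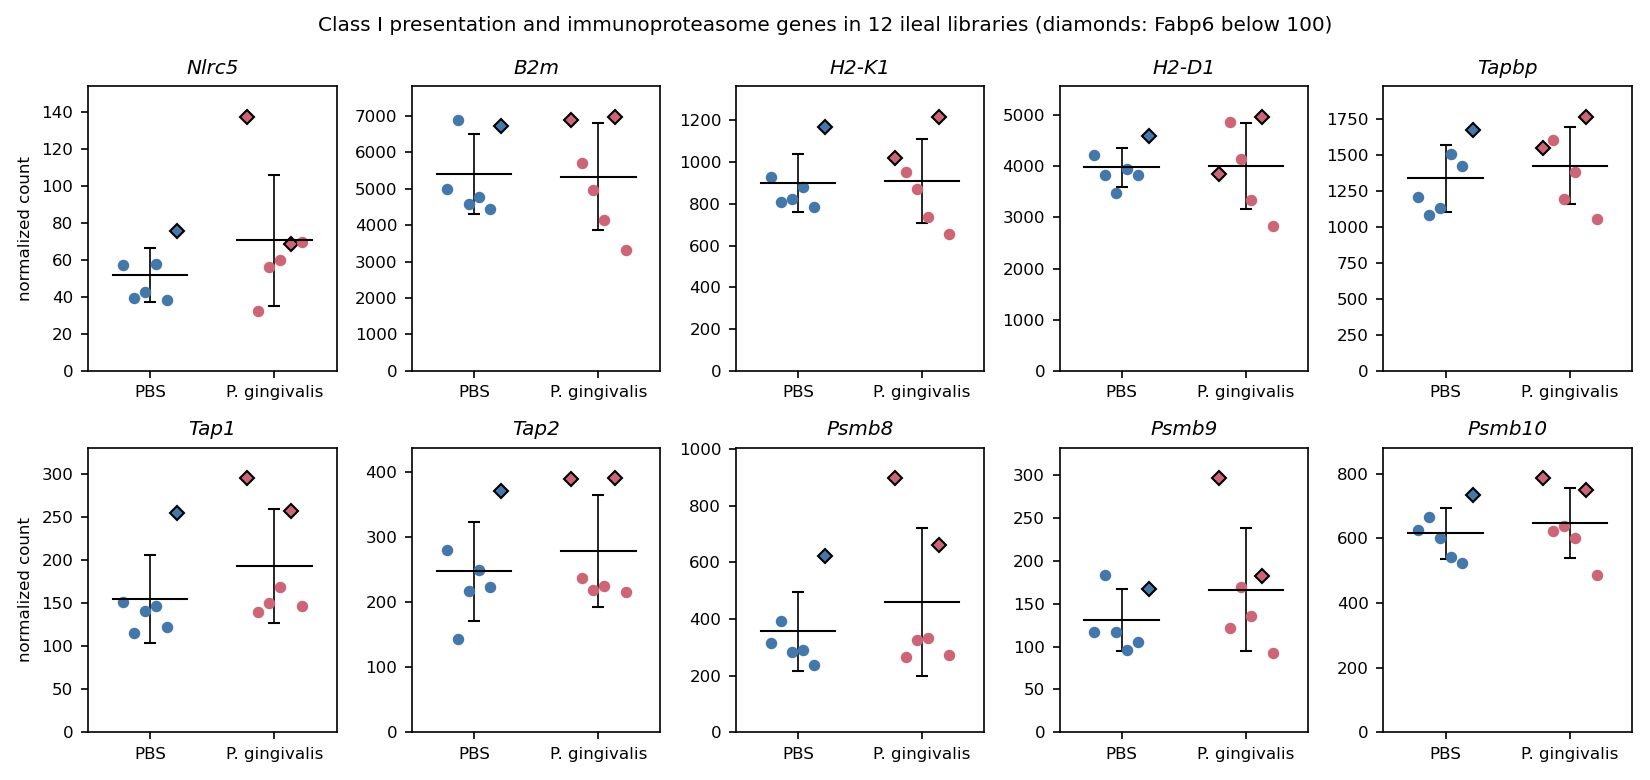
Normalized counts of the 10 genes in each library, on linear axes from 0, with group means and SD (n = 6 per group); diamonds mark the 3 libraries with Fabp6 below 100. In every panel the groups overlap, and for Psmb8, Psmb10, Tap1, Tap2 and H2-K1 the 3 diamonds lie above the 9 other points.

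Nlrc5, the transactivator, had the widest range of the 10. In PBS its lowest, median and highest libraries were at 38.4, 49.9 and 75.6 normalized counts, and after P. gingivalis at 32.5, 64.2 and 137.4. P. gingivalis library 1 stood far above all other libraries, while P. gingivalis library 2 was the lowest of the 12, so the treated group enclosed the control group. The log2 difference was 0.35 (standard error, SE, 0.28, 95% interval -0.24 to 0.95, limma adjusted p = 0.992), and 0.18 without the 3 libraries low in Fabp6. It rested on single libraries: it was 0.14 without P. gingivalis library 1 and 0.55 without P. gingivalis library 2 (limma unadjusted p = 0.043, adjusted p = 0.732). These levels rest on 36 to 109 reads per library.

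B2m, the β2-microglobulin gene, was the most abundant of the 10. Its lowest, median and highest levels were 4451, 4881 and 6894 in PBS and 3330, 5333 and 6977 after P. gingivalis. PBS libraries 2 and 6 and P. gingivalis libraries 1 and 5 lay together near the top, and P. gingivalis library 6 was the lowest. The log2 difference was -0.04 (SE 0.20, 95% interval -0.46 to 0.38, limma adjusted p = 0.996). It was -0.19 (SE 0.19, -0.60 to 0.22) without the 3 libraries low in Fabp6, and 0.08 without P. gingivalis library 6.

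H2-K1 and H2-D1 encode the classical heavy chains. H2-K1 had 787, 854 and 1167 normalized counts in the lowest, median and highest PBS libraries and 656, 910.4 and 1218 in those of the P. gingivalis group. H2-D1 had 3480, 3894 and 4589 in PBS and 2842, 3998 and 4974 after P. gingivalis. For both genes P. gingivalis library 5 was the highest and library 6 the lowest, so that all PBS libraries lay between 2 treated ones. The log2 differences were 0.00 (SE 0.15, 95% interval -0.31 to 0.31, limma adjusted p above that of H2-D1) for H2-K1 and -0.02 (SE 0.14, -0.32 to 0.29, limma adjusted p = 0.998) for H2-D1. Without the 3 libraries low in Fabp6 they were -0.09 (SE 0.12) and -0.05 (SE 0.16). The intervals over all libraries reach less far than those of Nlrc5 or Psmb8.

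Tapbp encodes tapasin. It was at 1083, 1315 and 1674 in the lowest, median and highest PBS libraries and at 1053, 1464 and 1768 in the P. gingivalis group. The log2 difference was 0.09 (SE 0.14, 95% interval -0.22 to 0.40, limma adjusted p = 0.992), and 0.04 without the 3 libraries low in Fabp6. The lowest and highest libraries were P. gingivalis libraries 6 and 5, as for the heavy chains.

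Tap1 and Tap2 encode the subunits of the peptide transporter. Tap1 had 115, 144 and 255 normalized counts in the lowest, median and highest PBS libraries and 139, 159 and 295 in the P. gingivalis libraries. Tap2 had 143, 237 and 371 in PBS and 216, 231 and 391 after P. gingivalis. For both genes the 3 libraries low in Fabp6 stood apart: Tap1 was at 255 to 295 there and at 115 to 169 in the other 9, and Tap2 at 371 to 391 against 143 to 281. The log2 differences between the treatment groups were 0.30 for Tap1 (SE 0.22, 95% interval -0.18 to 0.78) and 0.18 for Tap2 (SE 0.22, -0.30 to 0.66), each with a limma adjusted p of 0.992. Without the 3 libraries they were 0.16 and 0.04. Tap1 was at 0.16 without P. gingivalis library 1 and at 0.45 without PBS library 6 (limma unadjusted p = 0.037, adjusted p = 0.844), and Tap2 at 0.03 without PBS library 2 and 0.31 without PBS library 6.

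Psmb8 encodes the immunosubunit β5i, which takes the place of the subunit encoded by Psmb5. Its lowest, median and highest levels were 239, 303 and 621 in PBS and 266, 331 and 897 after P. gingivalis. The highest library of each group was one low in Fabp6, and P. gingivalis library 5, the third such library, followed at 661. All other libraries lay between 239 and 392. The log2 difference was 0.27 (SE 0.31, 95% interval -0.39 to 0.94, limma adjusted p = 0.992) over all libraries and -0.01 (SE 0.14, -0.31 to 0.30) without these 3. Leaving out 1 library gave 0.05 without P. gingivalis library 1 and 0.45 without PBS library 6.

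Psmb9 encodes β1i, the counterpart of the subunit from Psmb6. It had 96.2, 117 and 184 normalized counts in the lowest, median and highest PBS libraries and 92.2, 152 and 296 in the P. gingivalis group. P. gingivalis library 1 was again the highest, but PBS library 2, with Fabp6 present, came next. The log2 difference was 0.28 (SE 0.25, 95% interval -0.25 to 0.81, limma adjusted p = 0.992), and 0.07 without the 3 libraries. It was 0.09 without P. gingivalis library 1 and 0.43 without P. gingivalis library 6.

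Psmb10 encodes β2i, the counterpart of the subunit from Psmb7, and varied least of the 10. It was at 522, 615 and 734 in PBS and at 487, 629 and 787 after P. gingivalis. The 3 libraries low in Fabp6 were at 734 to 787 and the other 9 at 487 to 667. The log2 difference was 0.06 (SE 0.12, 95% interval -0.19 to 0.32, limma adjusted p = 0.992), and -0.01 without these 3.

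**Figure D2:**
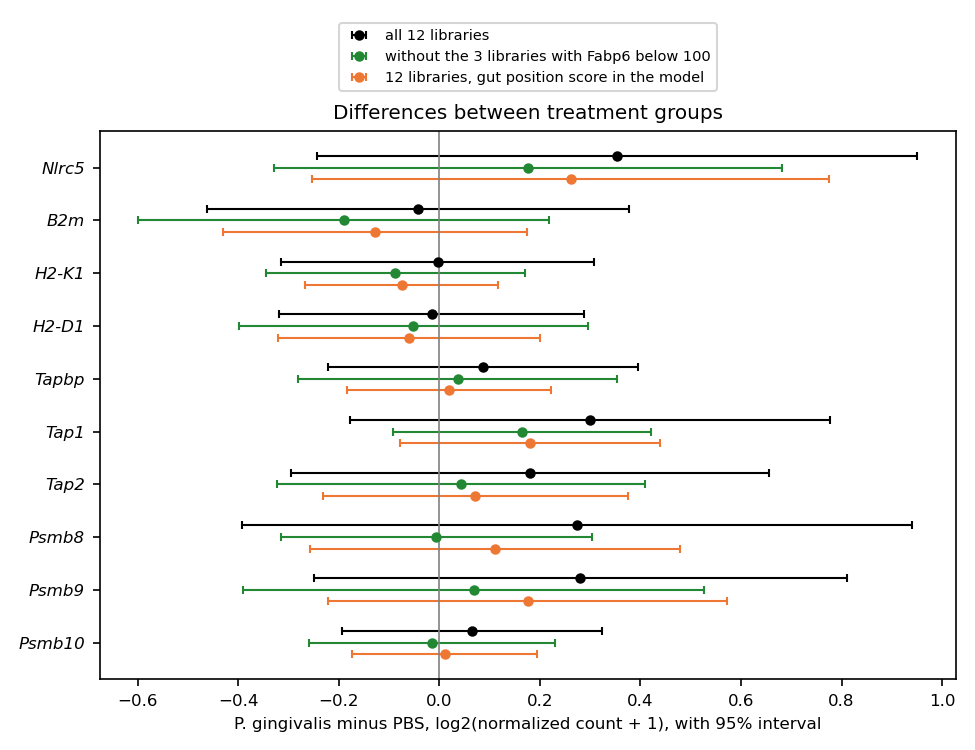
Log2 differences of the 10 genes, treated minus control, as log2(normalized count + 1) with 95% intervals, over all 12 libraries, without the 3 libraries with Fabp6 below 100, and with gut position as a term. Every interval includes 0, and the point for Psmb8 moves from 0.27 to -0.01 and 0.11.

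Gut position was also taken into the model as a score, the mean log2 level of 8 genes of the proximal small intestine minus that of 8 of the distal ileum. The score was 6.49 to 7.76 in the 3 libraries low in Fabp6 and -3.62 to 1.96 in the other 9. With it the log2 differences were 0.26 for Nlrc5 (SE 0.24), 0.18 for Tap1, 0.18 for Psmb9 (SE 0.19), 0.11 for Psmb8 and -0.13 for B2m (SE 0.14). The standard errors of Psmb8 and Tap1 were 0.17 and 0.12 with the score and 0.31 and 0.22 without it. None of the 10 passed (limma adjusted p from 0.959 to 0.993), and 0 had an unadjusted p under 0.05, against 4.46% of all genes.

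Each immunosubunit was set against the constitutive subunit it replaces, since their ratio within a library does not depend on depth. Psmb5 averaged 153 ± 20.8 normalized counts in PBS and 146 ± 2.93 after P. gingivalis (SD, n = 6), Psmb6 741 ± 117 and 674 ± 83.5, and Psmb7 625 ± 97.2 and 546 ± 31.4. The log2 ratio of Psmb8 to Psmb5 averaged 1.16 ± 0.48 in the PBS libraries and 1.49 ± 0.73 in the P. gingivalis libraries, differing by 0.33 (SE 0.36, exact two-sided permutation p = 0.299). That of Psmb9 to Psmb6 averaged -2.53 ± 0.27 and -2.11 ± 0.54, a difference of 0.41 (SE 0.25, exact permutation p = 0.115).

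The ratio of Psmb10 to Psmb7 averaged -0.02 ± 0.21 in the PBS libraries and 0.23 ± 0.27 in the treated ones, differing by 0.25 (SE 0.14, exact permutation p = 0.110). Adjusted over the 3 ratios the exact permutation p-values were 0.299, 0.172 and 0.172, where 6 against 6 libraries can give 0.00216 at the smallest. All 3 ratios were higher on average after P. gingivalis without passing, and in each the groups overlapped. The constitutive subunits were themselves lower, with log2 differences of -0.06 for Psmb5, -0.13 for Psmb6 and -0.18 for Psmb7. Leaving out 1 library gave ratio differences of 0.11 to 0.52 for Psmb8, 0.22 to 0.51 for Psmb9 and 0.18 to 0.32 for Psmb10. The 3 libraries low in Fabp6 held the 3 highest values of every ratio: 2.11 to 2.61 against 0.84 to 1.22 in the other 9 for Psmb8 to Psmb5, -2.05 to -1.16 against -2.80 to -2.22 for Psmb9 to Psmb6, and 0.36 to 0.59 against -0.27 to 0.13 for Psmb10 to Psmb7. Without them the differences were 0.07, 0.21 and 0.16 (adjusted exact permutation p = 0.516, 0.190 and 0.190).

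Levels of different genes can be compared per length, here as the mean normalized count per kilobase of the principal transcript over all 12 libraries. On this scale B2m stood at 6238, H2-D1 at 1900, H2-K1 at 559, Psmb10 at 482 and Tapbp at 477. Psmb8 followed at 251, Psmb9 at 110, Tap2 at 76.6, Tap1 at 58.9 and Nlrc5 at 8.08. Ranges over the libraries did not overlap between B2m (3872 to 8113) and H2-D1 (1352 to 2366), between H2-D1 and H2-K1 (405 to 753), or between Tap1 (39.0 to 99.9) and Nlrc5 (4.29 to 18.1). The ranges of all other neighbours in this order overlapped, and such ranges do not compare genes within the same library.

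Variation between libraries followed another order than the levels did. The highest library exceeded the lowest 4.22-fold for Nlrc5, 3.75-fold for Psmb8, 3.21-fold for Psmb9, 2.73-fold for Tap2 and 2.56-fold for Tap1. The ratio was 2.10 for B2m, 1.86 for H2-K1, 1.75 for H2-D1, 1.68 for Tapbp and 1.61 for Psmb10, where the median of all genes tested was 1.89. In the 9 libraries with Fabp6 the ratio fell to 1.64 for Psmb8 and 1.46 for Tap1, but stayed at 2.07 for B2m and 1.71 for H2-D1. The wide range of Psmb8 and Tap1 thus lay between the 3 libraries and the 9, and the narrower one of B2m and H2-D1 within the 9.

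All 3 libraries low in Fabp6 lay above all 9 others for 5 of the 10 genes, namely Psmb8, Psmb10, Tap1, Tap2 and H2-K1, where 6.46% of all genes tested did so. Of the other 5, Nlrc5, Tapbp and B2m had 8 of the 9 below the lowest of the 3, Psmb9 had 7 and H2-D1 had 5. P. gingivalis library 5 was among the 3 highest libraries for 9 of the 10 genes, and PBS library 6 and P. gingivalis library 1 for 8 each. P. gingivalis libraries 1 and 5 were each the highest for 5 genes. At the other end, P. gingivalis library 6 was the lowest for 6 genes, yet for Nlrc5 it was the third highest.

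**Figure D3:**
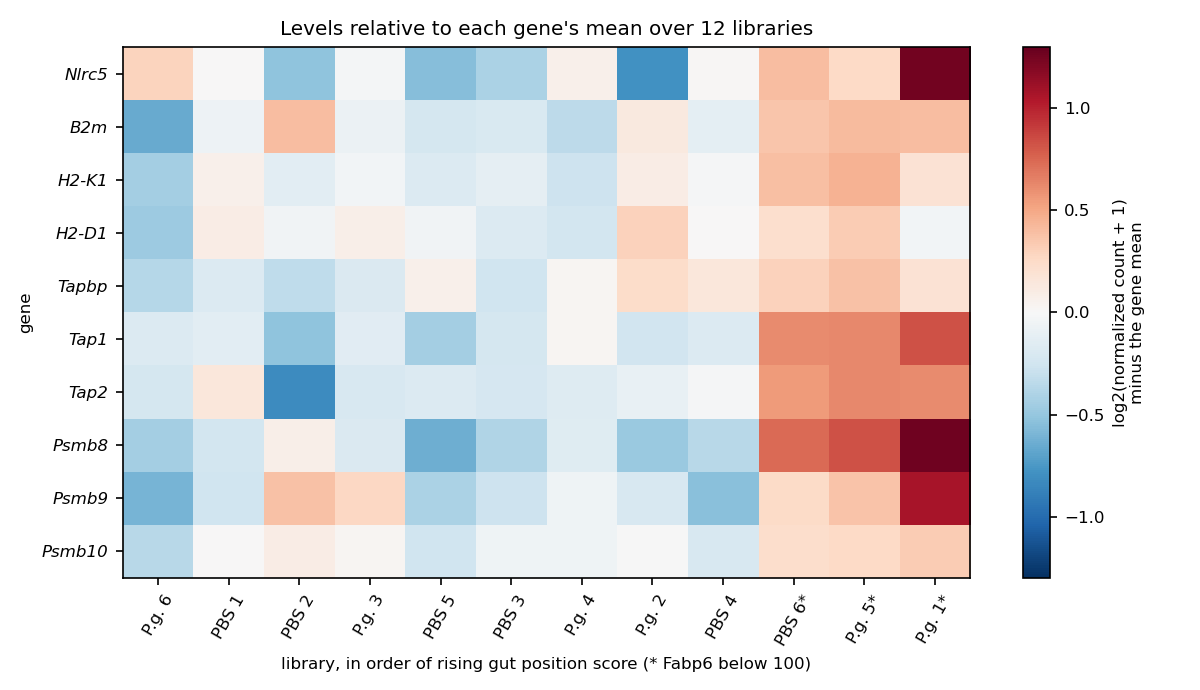
Level of each gene in each library as log2(normalized count + 1) minus the gene's mean over 12 libraries; libraries run from the lowest to the highest gut position score and asterisks mark Fabp6 below 100. The 3 libraries at the right, from both groups, are above the mean for nearly all genes, while P. gingivalis library 6 at the left is below it for all but Nlrc5.

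Across all 12 libraries the genes rose and fell together, with a positive Pearson r between log2 levels for 44 of 45 pairs and a median r of 0.70. Across the 9 libraries with Fabp6 this shared pattern was weaker: 26 pairs had a positive and 19 a negative r, and the median was 0.14. Part of this weakening rested on PBS library 2. Without that library fewer pairs had a negative r, and the median r was higher but still below that over all 12 libraries. These values are descriptions of libraries that also share depth, normalization and tissue makeup. Among the 9, Psmb8, Psmb9, Psmb10, B2m, H2-K1 and H2-D1 had a positive r in 14 of their 15 pairs, and Nlrc5, Tap1 and Tap2 in 3 of 3. Between these sets, which were formed after the values had been seen, r was negative in 14 of 18 pairs, but Spearman's rho in only 10. Without PBS library 2 r was negative in 9 of the 18, and that of Psmb8 and Tap1 went from 0.03 to 0.92 and that of Tap2 and B2m from -0.44 to 0.47. Tapbp, in neither set, had a positive r with 5 of the other 9 genes.

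The heavy chains were the closest pair among the 9 libraries. H2-K1 and H2-D1 had r = 0.94 (Spearman's rho 0.93, and r = 0.88 to 0.96 leaving out 1 library at a time), and they may share reads. Psmb9 and Psmb10, on different chromosomes, had r = 0.84 (rho 0.92, 0.80 to 0.89), and Psmb8 and Psmb9 r = 0.78 (rho 0.70, 0.62 to 0.82). Nlrc5 had r = 0.67 with Tap1 (rho 0.72, 0.61 to 0.80) and -0.66 with B2m (rho -0.60, -0.76 to -0.49).

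Psmb9 and Tap1, which start from 1 shared stretch, did not keep step. Their r was 0.67 over 12 libraries and -0.21 over the 9 (rho 0.00), and it changed sign to 0.39 without PBS library 2. That library was second highest for Psmb9 and B2m and the lowest of all for Tap1 and Tap2. It was also the highest for 14 of 14 constitutive 20S genes. Tap1 and Tap2, with r = 0.64 over the 9 libraries, had 0.14 without PBS library 2.

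**Figure D4:**
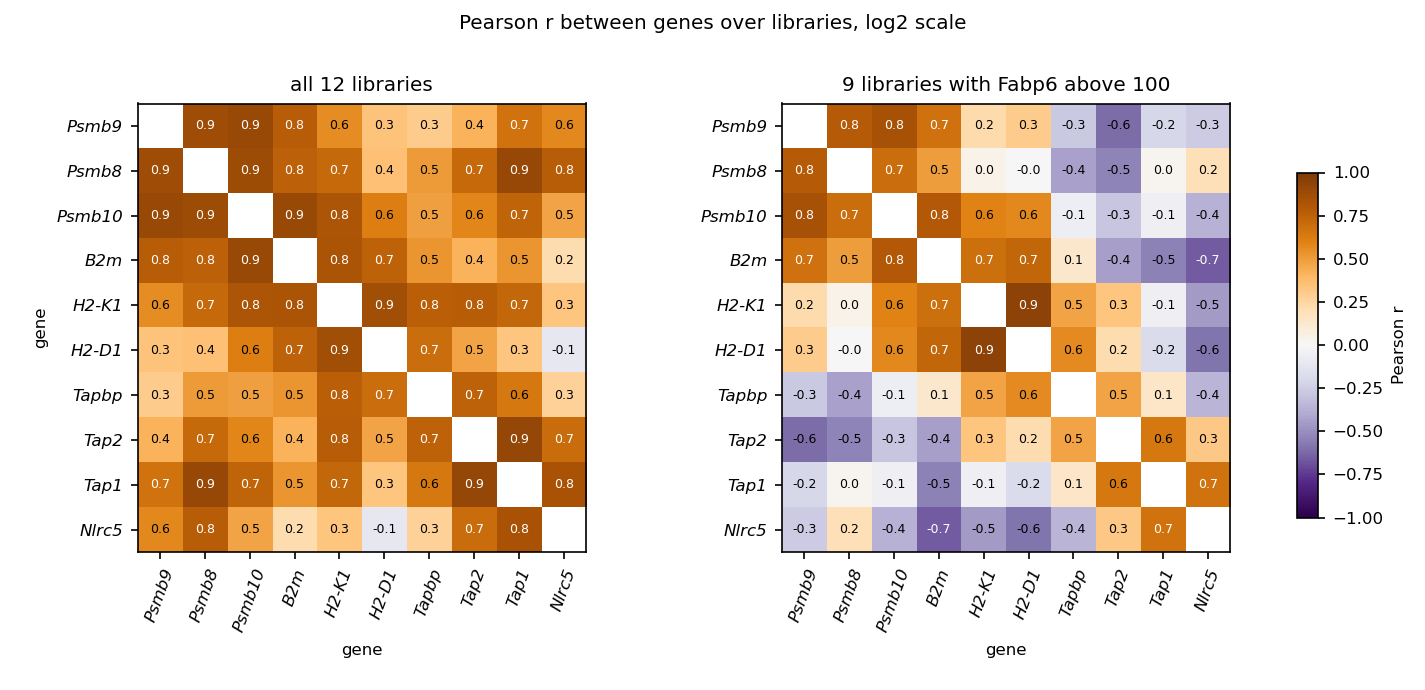
Pearson r between the log2 levels of each pair of genes over all 12 libraries (left) and over the 9 libraries with Fabp6 above 100 (right), on a colour scale from -1 to 1. At left 44 of 45 pairs are positive; at right 26 are, and of the 18 pairs of Nlrc5, Tap1 or Tap2 with an immunosubunit, B2m or a heavy chain 14 are negative (9 without PBS library 2).

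The libraries also differed in the levels of cell type markers, so each gene was set beside the summed level of 6 lists of such markers. Adipocyte markers, whose sums are given above, were not among them. Among the 9 libraries with Fabp6, Nlrc5 went with the T cell and cytotoxic lymphocyte list (r = 0.88, rho 0.90, 0.83 to 0.96 leaving out 1 library, 0.79 without the 2 farthest from the median sum). Tap1 did so less closely (r = 0.69, rho 0.72, 0.61 to 0.77, 0.65). Psmb8, Psmb9 and Psmb10 had r = 0.31, 0.02 and -0.14 with this list, and B2m, H2-K1 and H2-D1 -0.57, -0.48 and -0.52. Without the 2 farthest libraries they were 0.49, 0.38 and 0.45, and -0.06, 0.38 and 0.15, in that order. The negative values thus rested on few libraries. Nlrc5 also went with the endothelium list (r = 0.80, rho 0.82, 0.55 without the 2 farthest), the B cell list (r = 0.74, rho 0.43, 0.69), the macrophage and dendritic cell list (r = 0.73, rho 0.60, 0.27) and the smooth muscle list (r = 0.54, rho 0.45, 0.41), so its r was positive with all lists but that of epithelium. Tap1 had r = 0.71 with the B cell list (rho 0.70) and 0.52 with endothelium (rho 0.47), and B2m had -0.81 with endothelium (rho -0.62).

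The heavy chains went most closely with the epithelium list instead. H2-D1 had r = 0.96 among the 9 libraries (rho 0.87, 0.92 to 0.97 leaving out 1 library, 0.81 without the 2 farthest) and H2-K1 r = 0.83 (rho 0.73, 0.66 to 0.89, 0.44). That of H2-D1 was the highest r of any of the 10 genes with any list. P. gingivalis libraries 6 and 2 were the lowest and highest of the 9 for both genes and for the epithelial sum. They also had the lowest and highest summed normalized counts over all genes (6465218 and 8926411), and the part of scaling was not tested. Tapbp and B2m also had a positive r with the epithelium list (0.66 and 0.64, rho 0.62 and 0.60), which was 0.11 and 0.12 without the 2 farthest. Nlrc5 had -0.70 with that list, which was -0.08 without the 2 farthest libraries. The 3 libraries low in Fabp6 lay off this relation: their epithelial sums were 58622 to 83115 against 66744 to 121307 in the 9, yet H2-K1 was higher there than in any of the 9. Among the 9 libraries Tapbp was lowest where macrophage and dendritic cell markers were highest (r = -0.87, rho -0.82, -0.93 to -0.81 leaving out 1 library). Over all 12 libraries its r with that list was -0.26. The part of the cell mix in the levels of the 10 genes was not tested.

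**Figure D5:**
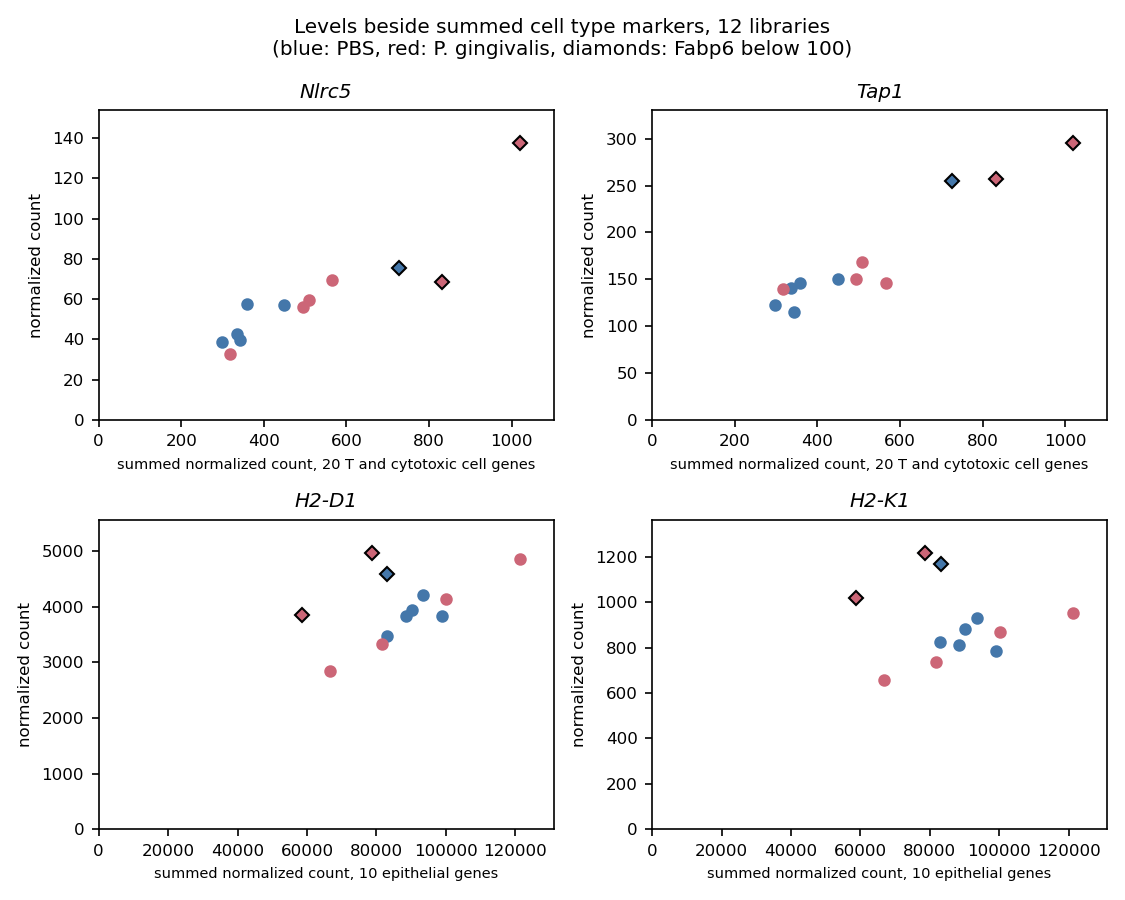
Nlrc5 and Tap1 against the summed normalized count of 20 T cell and cytotoxic lymphocyte genes, and H2-D1 and H2-K1 against that of 10 epithelial genes, on linear axes from 0, with 1 point per library; diamonds mark Fabp6 below 100. Nlrc5 and Tap1 rise with the lymphocyte sum through both groups, and the heavy chains rise with the epithelial sum among the 9 circles while the diamonds lie above circles of a like epithelial sum.

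The 3 libraries low in Fabp6 had more T cell and cytotoxic lymphocyte RNA. The T cell and cytotoxic lymphocyte sum was 727 to 1020 in them and 298 to 565 in the 9, and by group 298 to 727 in PBS and 317 to 1020 after P. gingivalis. Of the 20 listed genes 11 were tested, and all 3 libraries lay above all 9 for 6 of these 11, where 6.46% of all genes tested did so. Cd8a was at 48.6 to 66.8 in the 3 and at 11.7 to 29.6 in the 9, and Gzma, a granzyme, at 111 to 292 and 8.70 to 51.9. Cd3e, below the test's level, was at 8.64 to 20.6 and 3.34 to 15.5, and 2 listed genes, Cd2 and Cd5, were at 0 in at least 1 library. By treatment, 11 of 11 were higher after P. gingivalis (median log2 difference 0.46, and 0.32 with 9 of 10 higher without the 3), but 0 passed. The part of these markers in the levels of the 10 genes was not tested.

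B cell markers did not set these 3 libraries apart. Their sum was 779 to 1144 in 5 libraries (PBS 1 and 6, P. gingivalis 3, 4 and 6), and 119 to 283 in the other 7. By treatment, 10 of 10 were higher after P. gingivalis (median log2 difference 0.71, and 1.58 without the 3 libraries low in Fabp6), and 0 passed. Epcam, an epithelial adhesion molecule, was at 11161 to 15554 in PBS and at 7365 to 17095 after P. gingivalis, lowest in P. gingivalis library 1, where Nlrc5, Tap1 and the 3 immunosubunit genes were highest. The smooth muscle sum was highest in P. gingivalis library 6 (29690, against 8504 to 22932 elsewhere), where the most genes of the route were lowest. By treatment, 0 of its 10 genes were higher after P. gingivalis (median -0.52, and -0.44 without the 3), 4 had an unadjusted p under 0.05 and 0 passed. The part of B cells and smooth muscle in the levels of the 10 genes was not tested.

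Of the wider route, 0 genes of any list below passed limma's test in either direction. The 14 constitutive genes of the 20S core were lower after P. gingivalis in 13 cases, with a median log2 difference of -0.08. This rested on PBS library 2, without which 6 of 14 were lower and the median was 0.01. In the 9 libraries with Fabp6, which include PBS library 2, 14 of 14 were lower (median -0.09). Psma4 had the smallest p of that list, at 879 ± 87.0 and 768 ± 91.4 (log2 difference -0.20, SE 0.09), followed by Psmb7 (-0.18, SE 0.10) and Psma3 (-0.14, SE 0.11). Of the 18 genes of the 19S regulator, which unfolds substrates, 16 were lower (median -0.07, and 14 with -0.04 without the 3), with Psmc5 at -0.19 (SE 0.10), Psmc1 at -0.14 (SE 0.08) and Psmd6 at -0.12 (SE 0.10). Of 9 activators and assembly factors 5 were lower (median -0.04), and 3 without the 3 libraries (0.02). Psme1 and Psme2, the subunits of the interferon-induced activator PA28, differed by -0.12 (SE 0.13) and -0.04 (SE 0.17), Pomp, the assembly factor, by -0.11 (SE 0.10), Psmg3, an assembly chaperone, by 0.17 (SE 0.15) and Psme3, the activator PA28γ, by 0.15 (SE 0.13).

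All 8 genes of peptide loading and trimming were higher after P. gingivalis, by little: the median log2 difference was 0.05, and without PBS library 2 only 5 of 8 were higher. It was 7 of 8 (median 0.08) without the 3 libraries low in Fabp6. Erap1, the trimming aminopeptidase of the endoplasmic reticulum, was at 1142 ± 121 and 1240.0 ± 166 (log2 difference 0.12, SE 0.11). Pdia3, a disulfide isomerase of the loading complex, was at 2620 ± 231 and 2786 ± 284 (0.09, SE 0.10), and Uggt1, a glycoprotein quality control enzyme, at 1237 ± 136 and 1319.9 ± 145 (0.09, SE 0.10). In the 3 libraries low in Fabp6 none of the 8 lay above all 9 others, where 6.46% of all genes tested and 5 of the 10 genes of the route did.

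Of 17 tested class I and class I-like genes 10 were higher and 7 lower, with a median of 0.04. In the 9 libraries with Fabp6, 8 of 16 were higher (median -0.002). Cd1d1, which presents lipids to NKT cells, had the smallest p of all lists given here other than markers: it was at 63.8 ± 15.3 in PBS and 39.5 ± 10.8 after P. gingivalis (log2 difference -0.68, SE 0.20, limma adjusted p = 0.763). PBS libraries spanned 41.8 to 78.6 and treated ones 27.4 to 59.1, so the groups overlapped. H2-Q7, a nonclassical gene, was at 14.0 ± 5.30 and 22.4 ± 7.87 (0.64, SE 0.30), and H2-Q6 at 35.8 ± 9.12 and 47.4 ± 15.7 (0.35, SE 0.24). Genes of the Q and T regions are close copies, so their split is uncertain. H2-L was not analysed here.

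Among 25 regulators of class I genes, 19 were higher after P. gingivalis and the median log2 difference was 0.07 (17 and 0.06 without the 3 libraries low in Fabp6). Irf9, of the interferon-stimulated factor ISGF3, was at 264 ± 60.9 and 328 ± 73.8 (0.31, SE 0.16) and Irf2, another interferon regulatory factor, at 199 ± 41.5 and 262 ± 79.8 (0.36, SE 0.21). Irf1 was at 1002 ± 95.4 and 1113 ± 177 (0.14, SE 0.11). Rfx5, which binds the X box, was at 133 ± 7.35 and 137 ± 20.6 (0.04, SE 0.10), and Ciita, the class II counterpart of Nlrc5, at 183 ± 54.6 and 225 ± 55.4 (0.31, SE 0.21). Rfx5 was at 125 to 137 in the 3 libraries low in Fabp6 and at 117 to 173 in the 9, so these 3 libraries did not stand apart for it as they did for Psmb8 and Tap1.

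Of 17 other genes that interferon-γ induces, 16 were higher after P. gingivalis, with a median of 0.24. Without the 3 libraries low in Fabp6 it was 12 of 17, with a median of 0.06. Their summed level was 3287 to 4442 in these 3 libraries and 2446 to 2958 in the 9. For 7 of the 17 all 3 lay above all 9, where 6.46% of all genes tested did so. Tgtp2, an interferon-induced GTPase with a near-identical copy, was at 20.4 ± 4.12 and 33.6 ± 14.6 (0.60, SE 0.27), and Gbp4, a guanylate-binding protein, at 183 ± 31.1 and 247 ± 107 (0.34, SE 0.23). Each had a limma adjusted p of 0.992.

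The genes most like the 10 in their pattern were sought among 11208 others with a mean of at least 50, by Pearson r over 12 libraries with the mean of the 10 standardized log2 levels. The 8 highest had r = 0.96 to 0.97. They were G6pc, which encodes a glucose-6-phosphatase, Tmem37, Ifi30, a lysosomal thiol reductase, Treh, the brush border trehalase, Paqr7, Hsd17b13, Dhrs1 and a gene whose symbol had been turned into a date. For each of the 8 all 3 libraries low in Fabp6 lay above all 9 others, by far for Treh (2791 to 3575 against 257 to 1101) and by little for Ifi30 (1039 to 1093 against 584 to 855). Their choice by r largely fixed this, since the mean of the 10 was 1.09 to 1.40 in these 3 and at most -0.06 in the 9. Over the 9 libraries r was 0.67 to 0.90, highest for Ifi30. None of the 8 passed between the treatment groups (limma adjusted p = 0.992).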

How the data were processed

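The authors deposited 1 table of normalized count signal: gene counts divided by a size factor per library, per the file name and the values. FastQC, HISAT2, Cufflinks, DESeq2 and the builds GRCm38 and mm10 are listed, without roles, per the submitters' processing notes. The sources used here do not give counting, strand setting or annotation. All values (100%) were whole multiples of 1 step per library within 0.001 reads, so reads were recovered. The 10 genes and all lists were chosen with earlier results of these data known. Groups were compared with limma 3.58.1 (trend, two-sided, Benjamini-Hochberg at 0.05) on log2(normalized count + 1), which understates changes of weak genes, over the 15025 genes with a mean of at least 10. On the recovered reads edgeR 4.0.16 called 0 of 14907 genes and DESeq2 1.42.0 called 33 of 18239 (0.181%). Nothing says that libraries are separate animals, so p-values measure the spread between samples. No 2 libraries were copies (smallest chi-square per degree of freedom 7.09). In data simulated for this comparison over 15025 genes, 90% of 100 genes changed 2-fold and 98% of 100 changed 4-fold were recovered, all with a mean of at least 50, with 5 false calls. Counts there were drawn independently for each gene, with all changes planted at once. These shares are not the power for the 10 genes, whose median SE of the log2 difference was 0.21 against 0.15 for all genes tested. Named were all 10 genes, the 3 with the smallest p of each pathway list, the constitutive partners, Irf1, Rfx5 and Ciita, 8 genes most alike and 5 cell markers, leaving out some that are not reported here. Further genes, such as Psme1 and Gzma, were named after their values were seen. Alternatives are given last.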

Additional observations from a re-analysis of the deposited data

Results flagged for a closer look

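In 74 groups of 6 values, for the 10 genes, the 3 ratios and related genes, 8 had 1 library far from the other 5 by Dixon's criterion, which chance meets in about 1 of 20 groups. Nlrc5 was at 137.4 in P. gingivalis library 1, with the others of its group at 32.5 to 69.6. In PBS library 6, Tap1 was at 255 (others 115 to 151) and the log2 ratio of Psmb8 to Psmb5 at 2.11 (others 0.84 to 1.10). Both libraries are low in Fabp6. In PBS library 2, the constitutive subunit genes Psmb6 (964, others 635 to 747) and Psma4 (1045, others 809 to 884) and the assembly factor Pomp (757, others 525 to 592) were high, and Erap1 was low (910.0, others 1138 to 1263). Psmc5, an ATPase of the 19S regulator, was low in PBS library 3 (436, others 555 to 619).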

How the results depend on the processing

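Under 24 alternative settings of the fit over all genes, 0 of the 10 genes passed in any. An unadjusted p under 0.05 was reached by Psmb9 with sample weights, Tap1 without PBS library 6 and Nlrc5 without P. gingivalis library 2, and by none of the 10 in the other settings. Over all genes the count of 0 became 1 with a pseudocount of 5, 20 with sample weights, 33 by DESeq2 and 1 without the 3 libraries low in Fabp6, and leaving out 1 library gave 0 to 53 (53 without P. gingivalis library 6, 7 without PBS library 5). Of the related and marker genes 4 passed with sample weights, 1 by DESeq2 and 0 to 8 leaving out 1 library. Differences near 0 changed sign. H2-K1 was at 0.0041 with upper-quartile rescaling, 0.046 with weights, 0.011 by edgeR and 0.013 by DESeq2, H2-D1 at 0.038, 0.0045 and 0.0068 by the last 3, and B2m at 0.075 with weights. Leaving out 1 library gave -0.094 to 0.085 for H2-K1, -0.084 to 0.078 for H2-D1 and -0.13 to 0.083 for B2m. It gave 0.05 to 0.45 for Psmb8, 0.14 to 0.55 for Nlrc5, 0.16 to 0.45 for Tap1, 0.09 to 0.43 for Psmb9, 0.03 to 0.31 for Tap2, 0.02 to 0.17 for Tapbp and 0.01 to 0.14 for Psmb10. Without the 3 libraries B2m was at -0.19, Psmb8 at -0.0059 and Psmb10 at -0.014. Of the 10 genes 5 to 10 were higher after P. gingivalis across settings. A replicate block on the label's number gave 0 calls and unchanged differences (Psmb8 0.27), and for the ratios adjusted p = 0.375 in an exact sign-flip test. Same-numbered libraries did not deviate together (r from -0.54 to 0.08). No 2 of the 3 libraries low in Fabp6 share a number, which could hide a pairing, so this check cannot exclude one. The 36 to 109 reads of Nlrc5 limit its precision. The cause of these changes was not tested.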
